A study of Mus musculus with 45 samples.

Results

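Expression of 10 genes was followed through the differentiation of mouse neuroepithelial organoids with and without retinoic acid (RA). These were Sox1, Sox2, Sox3 and Sox21 of the SoxB family, Pax6, Pax2 and Pax8, the POU genes Pou3f2 and Pou3f3, and Fabp7. They were chosen by gene symbol, and each matched 1 row of the 54532 genes in the count table. RNA was sequenced from organoids of wild-type R1 cells, a mouse embryonic stem (ES) cell line, all grown in Matrigel and N2B27, a serum-free medium that allows neural differentiation. The 3 day 2 samples had received no RA. The other 42 samples were collected 8, 18, 30, 42, 54, 66 or 78 h after day 2, either untreated or with 250 nM all-trans RA from day 2, with 3 biological replicates in each of the 15 conditions. The replicates are cultures of the same cell line, so the spread between them does not include differences between lines.

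SoxB1 proteins mark and maintain neural progenitors, and Sox2 is also part of the pluripotency network of ES cells, so its transcript is present before neural induction, whereas Sox1 is turned on when cells become neuroectoderm. Pax6 patterns the neural tube and is induced as the neural plate forms, and Pax2 and Pax8 belong to a Pax subgroup that is expressed at the midbrain-hindbrain boundary and in spinal interneurons, but also in kidney, ear and thyroid. Pou3f2 and Pou3f3 are transcription factors of neural progenitors and young neurons, and Fabp7 encodes the brain lipid-binding protein of radial glia. RA acts through nuclear receptors that bind DNA at pairs of short half-sites, and it posteriorizes the neural tube.

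The genomic context of 4 of these genes is shown because each represents a different course of expression in the sections that follow: Sox2, which stayed within 2-fold between treatments, Pax6, which was higher with RA early, Pou3f3, which remained far higher with RA to the end, and Fabp7, which was first lower and later higher with RA. The sequences are upstream windows of RefSeq transcription starts on GRCm38.p6, written 5′ to 3′ on the gene's strand, with matches to the RA receptor half-site AGGTCA or to one of its close variants AGTTCA, the sequence GGTTCA and the sequence GGGTCA on either strand in capitals, so that a match on the opposite strand reads as its reverse complement. The Fabp7 sequence is cut at the base before the annotated gene, and its full window runs on into that gene.
Sox2, chr3:34649745-34649994, plus strand: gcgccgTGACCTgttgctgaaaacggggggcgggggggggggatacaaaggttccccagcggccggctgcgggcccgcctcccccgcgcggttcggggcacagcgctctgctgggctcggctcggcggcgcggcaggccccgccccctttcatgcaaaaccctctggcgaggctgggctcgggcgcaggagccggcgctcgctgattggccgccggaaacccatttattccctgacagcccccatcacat
Pax6, chr2:105668646-105668895, plus strand: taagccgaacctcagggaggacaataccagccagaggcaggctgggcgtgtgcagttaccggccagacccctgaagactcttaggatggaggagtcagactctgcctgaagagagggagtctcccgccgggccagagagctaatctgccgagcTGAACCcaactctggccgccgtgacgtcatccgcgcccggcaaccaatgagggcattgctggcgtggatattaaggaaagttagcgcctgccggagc
Pou3f3, chr1:42695518-42695767, plus strand: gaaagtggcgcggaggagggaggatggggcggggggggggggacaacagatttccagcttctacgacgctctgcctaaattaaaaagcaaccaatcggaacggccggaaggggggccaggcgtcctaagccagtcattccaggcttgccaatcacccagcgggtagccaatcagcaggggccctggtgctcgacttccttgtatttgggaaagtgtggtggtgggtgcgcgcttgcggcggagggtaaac
Fabp7, chr10:57784673-57784880, plus strand: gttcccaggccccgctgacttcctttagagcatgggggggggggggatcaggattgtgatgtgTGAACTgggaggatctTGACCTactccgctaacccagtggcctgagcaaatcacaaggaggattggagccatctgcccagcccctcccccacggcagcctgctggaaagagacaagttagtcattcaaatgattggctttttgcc

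Upstream windows of 250 bp were available for 9 of the 10 genes, with 12 windows in all, and Sox3 was not among them. A half-site was found in 4 of these windows, belonging to Sox1, Sox2, Pax6 and Fabp7, and in 38.6% of all 32851 windows of the genome. Only 26 bp of the Sox1 window lie before the annotated gene, and its match lies inside the annotated exon. Fabp7 had 2, AGTTCA at 187 to 182 bases and AGGTCA at 171 to 166 bases upstream of the RefSeq start, both on the opposite strand and with 10 bases between them. Its full window ends at chr10:57784922, inside the annotated gene. The distances are counted from there and not from the end of the sequence shown. The Pax6 match, GGTTCA, lay 97 to 92 bases upstream, and the window of Pou3f3 had none. ACAAAG, the core letters bound by Sox proteins, searched on both strands, was found in windows of Sox2, Pax2 and Pax6, and in 16.5% of all windows. The Pax6 match lay in another window than the one shown, chr2:105682213-105682462, inside the annotated gene. These are matches of letters and not measured binding.

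Total counts per library lay between 17298632 and 39688686. Of the 45 libraries, 6 stood apart in the mean level of 4 Y chromosome genes, with 1.22 to 3.65 CPM (read counts scaled to the size of each library) against 22.9 to 89.5 CPM in the other 39. They were RA 8 h replicate 3, all 3 untreated 30 h libraries and RA 30 h replicates 1 and 3, which leaves RA 30 h replicate 2 as the only library of that time in the higher range. The difference between 30 h and day 2, or any other time, therefore cannot be told apart from that between these libraries. Calls at 8 h are also given without RA 8 h replicate 3. Calls at 30 h cannot be given without these libraries, which include every untreated one, and are given without RA 30 h replicate 2 instead. Library numbers in the sample titles also form an earlier run of 29 and a later run of 16, and the later run holds RA 30 h replicates 2 and 3, day 2 replicate 3, untreated 54 h replicate 3 and all libraries of 66 and 78 h. Genes that respond to RA directly separated the treatments, with 10 of 10 higher with RA at 18 h, but at 66 h only 3 of 10 were higher and 2 lower, and at 78 h 2 higher and 2 lower. In untreated organoids all 10 were called higher than day 2 from 54 h on. The 24 other neural progenitor genes examined summed to 995 to 1020 CPM at day 2, 2160 to 2500 CPM in untreated organoids at 78 h and 2760 to 3240 CPM with RA, so neural markers were present in both. In bulk RNA of whole organoids, fewer cells of a type and less RNA per cell cannot be told apart.

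Between RA and untreated organoids 5 or 6 of the 10 genes were called different from 18 to 54 h, and fewer at the earliest and the latest times. A gene was called where the adjusted p of edgeR's quasi-likelihood test was under 0.01 (Benjamini-Hochberg, over all genes tested) and the change exceeded 2-fold, which is a log2 fold change above 1 or below -1. All 10 genes passed the filter on low counts in every comparison of RA with untreated organoids. At 8 h only Pax8 was called, lower with RA, where 1.8% of all genes tested were called in either direction. At 18 h Sox1, Sox21, Pax6 and Pou3f2 were higher with RA and Pax8 lower, 5 of 10 genes, against 10.9% of all genes. At 30 h Sox1, Sox21, Pax6, Pou3f2 and Pou3f3 were higher, 5 of 10 against 8.45%. Sox1 did not pass the minimum change at 42 h, where Sox21, Pax6, Pax2, Pou3f2 and Pou3f3 were higher and Fabp7 was lower, 6 of 10 against 12.5%. At 54 h Pax6, Pax2, Pou3f2 and Pou3f3 were higher and Fabp7 lower, 5 of 10 against 13.2%. At 66 h Pax2, Pax8, Pou3f2 and Pou3f3 were higher, 4 of 10 against 11.5%, and at 78 h Pax2, Pax8 and Pou3f3, 3 of 10 against 11.7%. Sox2 and Sox3 were not called at any time. The lower number of calls at 66 and 78 h depends on the minimum change. Sox1, Sox3, Pax6 and Fabp7 at 66 h, and Sox1, Sox21, Pou3f2 and Fabp7 at 78 h, had an adjusted p under 0.01 but stayed within 2-fold. The same held for Pax6 at 8 h, Fabp7 at 18 h, Sox1 and Sox3 at 42 h and Sox1 at 54 h, and for no gene at 30 h. Without RA 8 h replicate 3, Sox1 was also called at 8 h (log2 fold change 1.06, adjusted p = 0.0024), and without RA 30 h replicate 2 the number at 30 h was again 5. With all libraries, Sox1 was called at 8 h by DESeq2 (1.33, adjusted p = 0.0025) and without the filter on low counts (1.32, 0.0078). It was also called in both fits of all 45 libraries (1.29, adjusted p = 0.0032 and 0.0035).

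**Figure D1:**
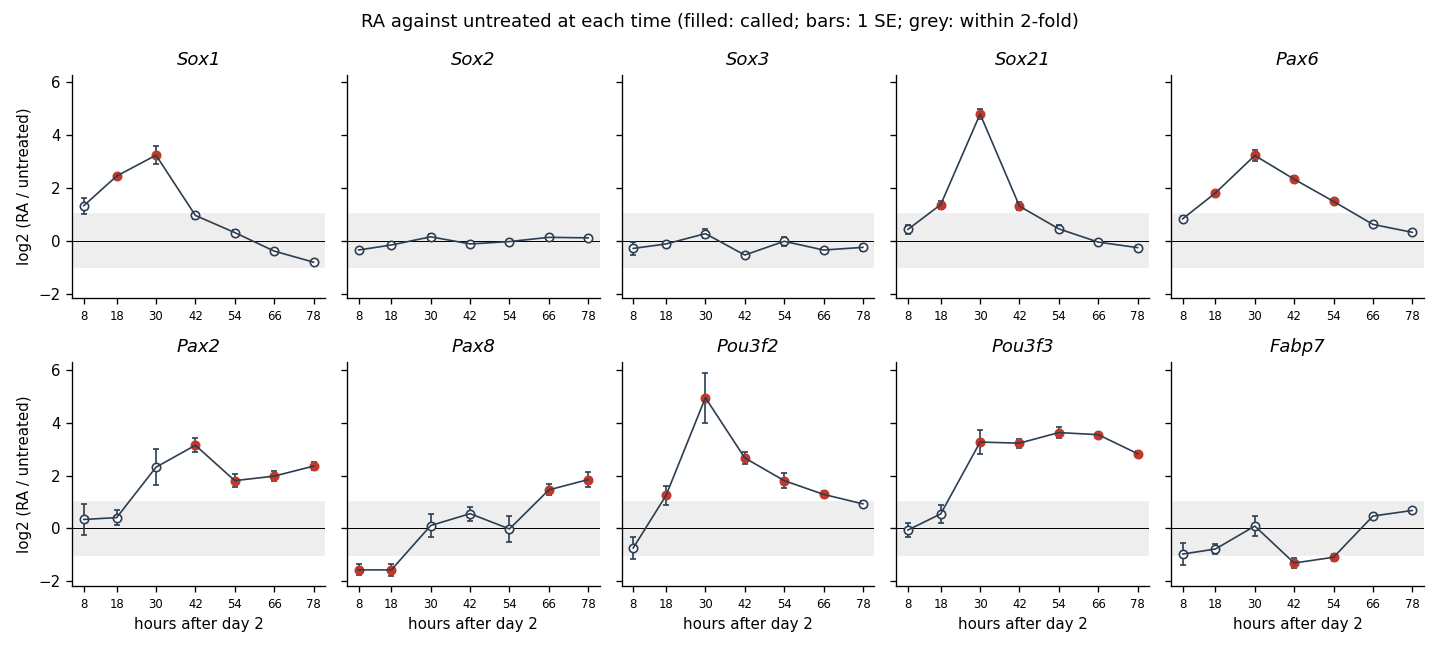
Log2 ratio of RA to untreated expression (vertical axis, ± 1 SE) against hours after day 2 for each of the 10 genes, with called differences as filled red points and the range within 2-fold in grey. Sox1, Sox21 and Pax6 peak at 30 h with 3.24, 4.80 and 3.23 and return to the grey band, and Sox2 and Sox3 never leave it. All untreated 30 h libraries had low Y chromosome expression, so the height of these peaks cannot be told apart from that library difference. Pou3f3 stays between 2.83 and 3.63 from 30 h on, and Pax8 and Fabp7 move from negative to positive values.

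Onset was taken as the earliest time at which an arm was called higher than day 2. All 14 of these comparisons share the 3 day 2 libraries. In untreated organoids no gene was called higher at 8 h (background 0.409% of all genes). Sox1 and Fabp7 were higher at 18 h (3.2%) and at 30 h (11.9%), and they were joined by Sox3, Sox21 and Pou3f2 at 42 h, which made 5 of 10 (13.2%). At 54 h 8 of 10 genes were higher (15%), all except Sox2 and Pax8, at 66 h 7 of 10 (18.2%), without Pax2, and at 78 h the 8 of 54 h (20.3%). With RA no gene was called higher at 8 h (2.65%), and Sox1, Pax6 and Fabp7 were higher at 18 h (14.5%). Sox21 followed at 30 h, 4 of 10 (15.9%), and Pax2, Pou3f2 and Pou3f3 at 42 h, 7 of 10 (19.8%). Sox3 came up at 54 h, so that 8 of 10 genes were higher at 54 h (20.6%), 66 h (21.7%) and 78 h (22.9%), the same 8 genes as in untreated organoids.

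Onset was thus earlier with RA for Sox21 (30 against 42 h), Pax6 (18 against 54 h), Pax2 (42 against 54 h) and Pou3f3 (42 against 54 h). It fell at the same time in both arms for Sox1 (18 h), Fabp7 (18 h) and Pou3f2 (42 h), and later with RA for Sox3 (54 against 42 h). Sox2 and Pax8 had none. The ties of Sox1 and Fabp7 depended on the setting. With DESeq2, Sox1 was called higher than day 2 with RA at 8 h (1.01, adjusted p = 0.0092), which makes its onset earlier with RA. The RA call of Fabp7 at 18 h was lost with DESeq2 and in both fits of all 45 libraries (adjusted p = 0.017, 0.025 and 0.013), which makes its onset later with RA. The order of onsets is a description without a test of its own. When the 30 h time point and RA 8 h replicate 3 were left out, 3 genes remained earlier with RA: Pax6, Pou3f3 and Pax2, the last now called at 8 h, and Sox21 had an onset of 42 h in both arms. The tie of Sox21 cannot show the order of its onsets, because the time of its RA onset, 30 h, was left out. RA 30 h replicate 2 alone had a Sox21 log2 fold change of 2.92 against day 2. The order for Pax2 also turned with the filter: with none, or with at least 10 counts in every library, the gene was called higher than day 2 in untreated organoids at 8 h (1.18, adjusted p = 0.0088, and 1.19, adjusted p = 0.009), before its onset with RA.

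**Figure D2:**
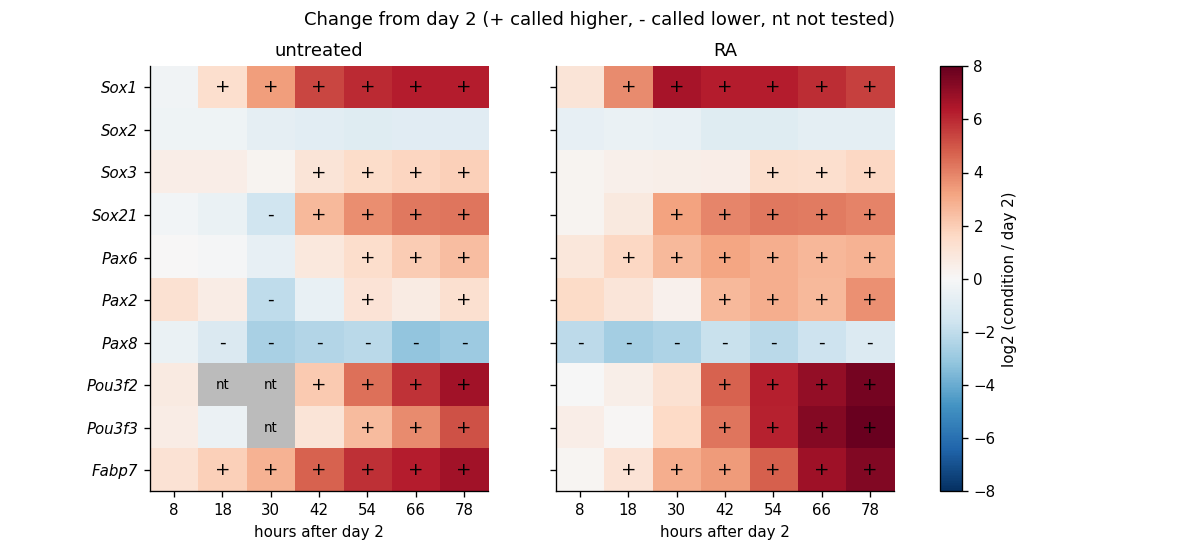
Log2 ratio of each condition to day 2 (colour) for the 10 genes (rows) by hours after day 2 (columns), untreated on the left and RA on the right, with + for called higher, - for called lower and nt for not tested because of low counts. The + marks begin earlier with RA for Sox21, Pax6, Pax2 and Pou3f3 and later for Sox3.

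Among the SoxB1 genes, Sox1 had the largest RA effects. This gene, 1 exon on chr8:12395295-12400126 (plus strand), had 2.53, 1.75 and 2.03 CPM in the 3 day 2 libraries. The untreated 8 h libraries had 1.15, 1.94 and 1.92 CPM and the RA libraries 3.48, 3.63 and 5.53 CPM, without overlap (log2 fold change 1.33 ± 0.30, adjusted p = 0.032). At 18 h it had 5.05, 4.99 and 5.98 CPM without RA and 29.9, 28.0 and 30.0 CPM with RA. Every RA library was above every untreated library, and the log2 fold change was 2.45 ± 0.08 (SE, adjusted p = 1.4e-10). At 30 h the untreated libraries had 23.8, 17.8 and 22.5 CPM and the RA libraries 259, 106 and 246 CPM. The lowest RA value was that of replicate 2, the library with higher Y chromosome expression, and it still lay above all untreated values. The log2 fold change at 30 h was 3.24 ± 0.33 (adjusted p = 0.00058), and 3.53 without replicate 2.

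The courses of Sox1 then crossed. Untreated organoids reached 69.5, 110 and 75.8 CPM at 42 h and then a mean of 169 ± 22.4 CPM (SD, n = 3) at 66 h and 169 ± 17.3 CPM at 78 h. RA organoids went from a highest mean of 204 CPM at 30 h, which rests on replicates 1 and 3 since replicate 2 lay below every RA library of 42 h, to 167 ± 9.04 CPM at 42 h and 93.8, 96.4 and 95.9 CPM at 78 h, 46.9% of the highest mean. At 78 h all RA libraries were below all untreated libraries, by -0.81 ± 0.06 on the log2 scale (adjusted p = 1.4e-06), which is within 2-fold and so was not called. At 42 h the difference of 0.96 ± 0.14 (adjusted p = 0.00019) was just within 2-fold, and without untreated replicate 2 it was 1.17 (adjusted p = 3.2e-06). The change in the RA effect was itself tested by an interaction term, called at an adjusted p under 0.01 alone. From 18 to 42 h the effect on Sox1 dropped by 1.47 ± 0.20 on the log2 scale (adjusted p = 6.3e-05), and from 42 to 78 h by 1.79 ± 0.17 (adjusted p = 3.2e-06). Between 18 and 42 h the interaction was called for 5 of the 10 genes, against 16.2% of all genes tested, and between 42 and 78 h also for 5, against 12.6%.

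Sox2 (1 exon, chr3:34650405-34652461, plus strand) was the highest of the 10 genes in CPM per kb of exon at every time and had the narrowest range of RA effects. It had 395, 413 and 409 CPM at day 2. At 78 h it had 213, 219 and 228 CPM without RA and 257, 228 and 219 CPM with RA, all below day 2 and overlapping each other. The log2 difference between treatments lay between -0.35 and 0.15 over the 7 times, and at 54 h it was -0.03 with a 95% interval of -0.19 to 0.12. The largest difference was at 8 h, where RA libraries had 247, 250 and 249 CPM and untreated libraries 304, 305 and 346 CPM, without overlap (log2 fold change -0.35 ± 0.07, adjusted p = 0.025, and -0.37, adjusted p = 0.00063, without RA replicate 3). Against day 2 the change at 54 h was -0.97 ± 0.06 without RA (adjusted p = 5.0e-10) and -1.0 ± 0.05 with RA (adjusted p = 5.5e-09), at the edge of the 2-fold minimum. Sox2 was thus not called, although it passed that minimum in both arms in a single fit of all 45 libraries (-1.01 and -1.03) and without day 2 replicate 1 (-1.02 in each).

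Sox3 (1 exon, chrX:60891366-60893430, minus strand), the X-linked SoxB1 gene, rose in both arms. It had 21.4, 20.1 and 27.4 CPM at day 2, 80.9, 88.7 and 92.4 CPM in untreated organoids at 78 h and 59.8, 68.6 and 90.2 CPM with RA. Against day 2 this was a log2 fold change of 1.92 ± 0.09 without RA (adjusted p = 1.2e-11) and 1.66 ± 0.15 with RA (adjusted p = 5.4e-07). At 42 h the untreated libraries had 41.2, 52.3 and 46.6 CPM and the RA libraries 35.3, 31.5 and 30.5 CPM. The groups did not overlap there, with a log2 fold change of -0.54 ± 0.09 (adjusted p = 0.00047), within 2-fold. The later onset with RA rests on this time, and the untreated call at 42 h (1.05 ± 0.11, adjusted p = 1.2e-06) was within 2-fold without day 2 replicate 2 (0.97) or untreated replicate 2 (0.96). RA 8 h replicate 3 stood apart with 15.1 CPM against 30.9 and 32.6 CPM in the others.

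Sox21 (1 exon, chr14:118233232-118237030, minus strand), the SoxB2 gene whose protein counteracts SoxB1 activity, had 5.18, 4.35 and 5.65 CPM at day 2 and went in opposite directions in the arms before it rose in both. At 30 h the untreated libraries had 1.88, 1.28 and 1.84 CPM, below every day 2 library (log2 fold change against day 2 -1.57 ± 0.21, adjusted p = 2.0e-06), while RA libraries had 52.6, 38.2 and 50.6 CPM. All of these untreated libraries had low Y chromosome expression, so the fall cannot be told apart from that library difference. The RA effect at 30 h was 4.80 ± 0.20 on the log2 scale (adjusted p = 2.4e-05), or 27.8-fold, and 4.89 without RA replicate 2. It was smaller at 18 h, where untreated libraries had 3.02, 3.75 and 3.63 CPM and RA libraries 10.5, 7.63 and 8.83 CPM (1.37 ± 0.15, adjusted p = 5.7e-06). By 66 h untreated organoids had 92.4 ± 10.8 CPM and RA organoids 88.3 ± 5.16 CPM, a difference of -0.05 with a 95% interval of -0.27 to 0.16. The RA effect dropped by 1.59 ± 0.18 on the log2 scale between 42 and 78 h (adjusted p = 1.3e-05). Gm4675, a long non-coding RNA on the opposite strand, shares 713 bp of exon with Sox21. It had at most 233 counts in any library, against at most 3653 for Sox21, and the strand setting of the counting is not given in the sources used here.

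**Figure D3:**
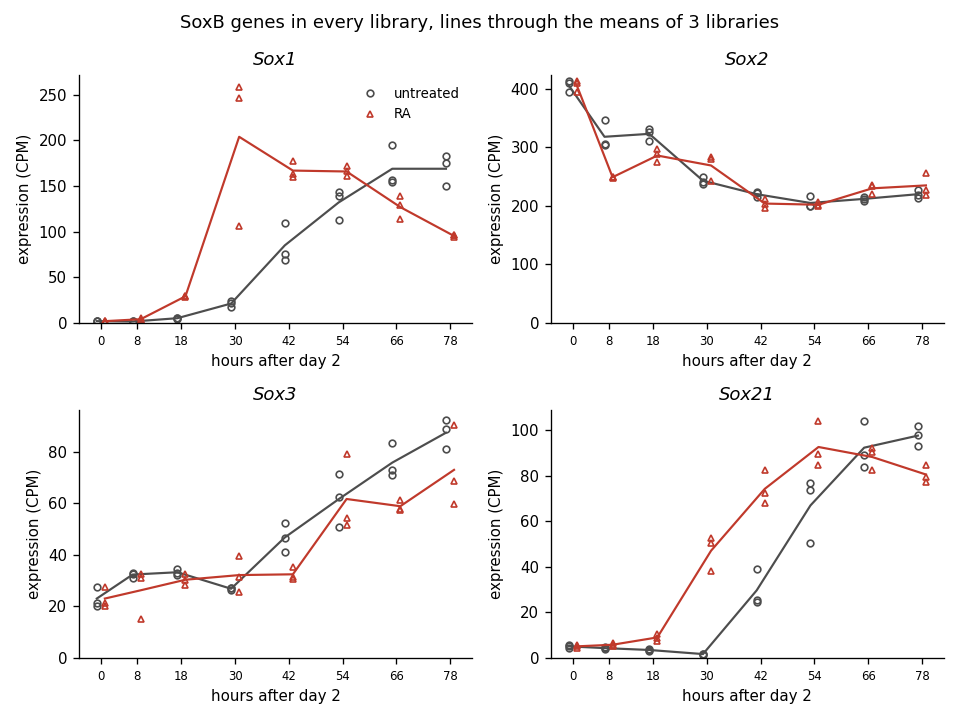
Expression of Sox1, Sox2, Sox3 and Sox21 in CPM (vertical axis) against hours after day 2, with each of the 45 libraries as a symbol (grey circles untreated, red triangles RA, day 2 drawn in both) and lines through the means of 3 libraries. The red line of Sox1 rises first, to 204 CPM at 30 h, and ends below the grey line at 78 h, and the 2 lines of Sox2 stay close throughout.

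Of the Pax genes, Pax6 had the highest level per kb of exon, and its RA libraries lay above its untreated libraries at all 7 times. It spans chr2:105668900-105697364 (plus strand, 16 merged exons), and the day 2 libraries had 18.4, 18.6 and 15.8 CPM. At 8 h the untreated libraries had 18.3, 17.2 and 18.3 CPM and the RA libraries 29.4, 34.3 and 31.4 CPM. The groups did not overlap, and the log2 fold change of 0.83 ± 0.09 (adjusted p = 0.0025) was within 2-fold, as it was without RA replicate 3 (0.82, adjusted p = 3.0e-06). At 18 h the RA libraries had 60.3, 56.5 and 52.8 CPM and the untreated ones 16.7, 15.8 and 16.4 CPM, still at the day 2 level (1.81 ± 0.07, adjusted p = 3.0e-10). The largest difference was at 30 h, 3.23 ± 0.20 (adjusted p = 8.0e-05), where untreated libraries were at 12.2, 9.39 and 11.5 CPM and RA libraries at 122, 75.3 and 114 CPM, and without RA replicate 2 it was 3.38.

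With RA, Pax6 was highest at 42 h (158 ± 11.1 CPM) and lower at 78 h (103, 115 and 137 CPM, 74.8% of the highest mean). Untreated organoids rose later, to 31.0 ± 5.97 CPM at 42 h and 94.2, 89.8 and 102 CPM at 78 h. All RA libraries were still above all untreated libraries at 78 h, by 0.32 ± 0.09 on the log2 scale (adjusted p = 0.015), which did not pass the test. The RA effect rose by 0.55 ± 0.14 between 18 and 42 h (adjusted p = 0.0092) and dropped by 2.03 ± 0.16 between 42 and 78 h (adjusted p = 5.3e-07). The former was lost when any of 9 of the 12 libraries was left out (adjusted p up to 0.029).

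Pax2 (chr19:44756045-44837871, plus strand, 11 merged exons) was a low transcript that was higher with RA from 42 h on. It had 0.58, 0.50 and 0.747 CPM at day 2, from 10 to 18 counts. At 42 h the untreated libraries had 0.354, 0.38 and 0.469 CPM and the RA libraries 4.19, 2.79 and 3.97 CPM. The groups were far apart, with a log2 fold change of 3.15 ± 0.27 (adjusted p = 5.1e-06). At 78 h they had 1.44, 1.31 and 1.78 CPM without RA and 6.95, 7.71 and 8.51 CPM with RA (2.36 ± 0.16, adjusted p = 5.7e-07). The RA effect rose by 2.77 ± 0.37 between 18 and 42 h (adjusted p = 4.9e-05).

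Before that, the level of Pax2 moved with the libraries named at the start. RA 8 h replicate 3 had 0.332 CPM against 2.52 and 2.36 CPM in the other RA libraries, and without it RA at 8 h was called higher than day 2 (1.99, adjusted p = 0.00012). Untreated 30 h organoids had 0.0376, 0.183 and 0.255 CPM of Pax2, from 1 to 5 counts, called lower than day 2 (-2.02 ± 0.56, adjusted p = 0.0035). That call was lost with DESeq2 (adjusted p = 0.015) and without day 2 replicate 3 (-1.84, 0.013), untreated replicate 1 (-1.42, 0.041) or untreated replicate 2 (-2.15, 0.014). The untreated onset at 54 h (1.10 ± 0.34 against day 2, adjusted p = 0.009) was lost when any of the day 2 libraries, or untreated replicate 1 or 3, was left out (adjusted p 0.012 to 0.043), and DESeq2 gave 0.022, so that the next called time is 78 h (1.29 ± 0.29, adjusted p = 0.0008).

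Pax8 (chr2:24420560-24475599, minus strand, 13 merged exons) was called lower than day 2 in 13 of 14 comparisons. It had 8.16, 8.44 and 7.10 CPM at day 2, and at 8 h 5.54, 5.91 and 4.96 CPM without RA and 2.22, 1.81 and 1.44 CPM with RA. The 3 groups did not overlap. RA was lower than untreated by -1.57 ± 0.21 at 8 h (adjusted p = 0.0051) and -1.57 ± 0.22 at 18 h (adjusted p = 7.0e-05). The 8 h call was lost with any 1 library left out except RA replicate 3, without which it was -1.44 (adjusted p = 3.0e-05). Against day 2 Pax8 was called lower with RA at all 7 times, and without RA from 18 h on. The call of RA 78 h was lost with library totals (-0.93, adjusted p = 0.002) and without RA replicate 3 (-0.86, adjusted p = 0.0001), and that of untreated 18 h with the library run as a term (-1.11, adjusted p = 0.016).

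The direction of the RA effect on Pax8 turned later. At 66 h the untreated libraries had 1.15, 0.772 and 0.722 CPM and the RA libraries 2.42, 2.39 and 2.46 CPM (1.46 ± 0.21, adjusted p = 0.00033). At 78 h they had 0.791, 1.25 and 1.03 CPM and 4.69, 4.06 and 2.24 CPM (1.85 ± 0.28, adjusted p = 0.00027). The effect rose by 2.14 ± 0.36 between 18 and 42 h (adjusted p = 0.00038). At 54 h RA replicate 1 had 0.385 CPM against 2.3 and 2.47 CPM in the others, and the difference went from -0.02 with all libraries to 0.42 without it, neither past the test. Gm13415, on the opposite strand, shares 367 bp of exon with Pax8 and had at most 23 counts in a library, against at most 197 for Pax8.

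The POU genes were near 0 CPM until 30 h, and from 54 h on Pou3f3 had the largest RA effect of the 10 genes. Pou3f2 (1 exon, chr4:22482780-22488366, minus strand), also known as Brn2, had 0.29, 0.60 and 0.581 CPM at day 2. At 42 h the untreated libraries had 1.69, 2.70 and 1.66 CPM and the RA libraries 17, 11.7 and 10.4 CPM (log2 fold change 2.67 ± 0.23, adjusted p = 5.0e-06). At 78 h the values were 54.2, 47.5 and 52.2 CPM without RA and 83.9, 97.0 and 110 CPM with RA. The groups did not overlap at either time, and the difference at 78 h of 0.93 ± 0.10 (adjusted p = 1.4e-05) was just within 2-fold, and 1.04 without RA replicate 1. Between 42 and 78 h the RA effect dropped by 1.75 ± 0.26 (adjusted p = 0.0002).

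At earlier times the counts of Pou3f2 were small. The 18 h difference of 1.25 ± 0.35 (adjusted p = 0.0081) rested on 6 to 18 counts per library, was lost with any library left out (adjusted p 0.016 to 0.035), and DESeq2 gave an adjusted p of 0.043. At 30 h the untreated libraries held 2 counts of Pou3f2 in all and the RA libraries 111, a ratio of 36.0 with an exact 95% interval of 9.73 to 301 that covers counting error only. This call was lost with any library left out except RA replicate 2 (adjusted p 0.013 to 0.045), and without that replicate the adjusted p was 0.00015.

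Pou3f3 (1 exon, chr1:42695768-42703176, plus strand), also known as Brn1, had 0.539, 0.45 and 0.872 CPM at day 2. At 42 h it had 1.10, 1.6 and 1.12 CPM without RA and 13.1, 12.4 and 10.7 CPM with RA. At 66 h it had 9.24, 8.09 and 9.13 CPM without RA and 111, 98.2 and 98.3 CPM with RA. By 78 h untreated libraries had 22.2, 19.7 and 23.4 CPM and RA libraries 134, 155 and 171 CPM, 35.1 and 247 times the day 2 mean. Every RA library was above every untreated library from 30 h on. The log2 fold change was 3.23 ± 0.17 at 42 h (adjusted p = 1.3e-07), 3.63 ± 0.21 at 54 h (2.3e-07), 3.55 ± 0.08 at 66 h (2.1e-09) and 2.83 ± 0.10 at 78 h (2.9e-09).

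The RA effect on Pou3f3 rose by 2.71 ± 0.35 between 18 and 42 h (adjusted p = 3.5e-05), and between 42 and 78 h it changed by -0.42 ± 0.21 (adjusted p = 0.19), so that its decline was not past the test. Its onset depended on the setting in both arms. Untreated organoids at 42 h were at 1.04 against day 2 (adjusted p = 0.016), and they were called without day 2 replicate 3 (1.39, 0.0070), without the filter (1.05, 0.0092) and with the library run as a term (1.13, 0.0032), which brings the untreated onset to 42 h. RA organoids at 30 h were at 1.61 (adjusted p = 0.013), and they were called without RA replicate 2 (1.22, 0.0069), and at 1.48 to 1.79 with library totals, DESeq2, no filter and both fits of all 45 libraries. Pou3f3 had 3 to 5 counts in the untreated libraries of 30 h, and the call there (3.27 ± 0.45, adjusted p = 0.002) was lost without any of the 3 untreated libraries (adjusted p 0.012 to 0.018) but not without RA replicate 2 (2.88, adjusted p = 2.0e-05). Untreated organoids at 30 h were not tested against day 2 for Pou3f2 and Pou3f3, nor at 18 h for Pou3f2, because the counts were too low. RA 54 h replicate 1 had the highest values of both genes at that time, 54.3 CPM of Pou3f2 against 31.2 and 24.7 CPM, and 59.5 CPM of Pou3f3 against 40 and 37.2 CPM.

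Fabp7 (chr10:57784881-57788450, plus strand, 4 merged exons) was the only gene of the 10 called lower with RA at 42 and 54 h. It had 0.705, 0.35 and 0.706 CPM at day 2. At 42 h the untreated libraries had 12.8, 20.5 and 12.8 CPM and the RA libraries 6.48, 6.61 and 5.62 CPM. At 54 h they had 30.3, 36.6 and 36.7 CPM and 12.1, 18.5 and 18.4 CPM. The groups did not overlap at either time, and RA was lower by -1.31 ± 0.18 (adjusted p = 0.00016) and -1.09 ± 0.14 (adjusted p = 7.6e-05). Without RA 54 h replicate 1 the latter was -0.94 (adjusted p = 2.6e-06), within 2-fold.

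From 66 h the order was the opposite. Untreated libraries had 44.8, 44.8 and 52.8 CPM of Fabp7 and RA libraries 72.8, 60.2 and 62.0 CPM at 66 h. The 78 h values were 69.3, 61.5 and 64.1 CPM without RA and 114, 97.2 and 99.2 CPM with RA. Again the groups did not overlap, with differences of 0.47 ± 0.09 (adjusted p = 0.0013) and 0.68 ± 0.07 (adjusted p = 2.2e-05), both within 2-fold. The change of the RA effect between 42 and 78 h, 1.98 ± 0.21 (adjusted p = 6.9e-06), was called. Both arms passed the test against day 2 at 18 h, untreated organoids with 2.17, 2.23 and 2.40 CPM (1.92 ± 0.28, adjusted p = 9.2e-05) and RA organoids with 1.48, 1.11 and 1.35 CPM (1.12 ± 0.34, adjusted p = 0.0073). The RA onset at 18 h rested on 27 to 34 counts per library and was lost when any library except day 2 replicate 3 was left out (adjusted p 0.011 to 0.039). DESeq2 gave 0.017. At 30 h RA replicate 2 had 6.99 CPM against 3.13 and 3.01 CPM, and without it the difference went from 0.09 to -0.46, neither past the test.

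**Figure D4:**
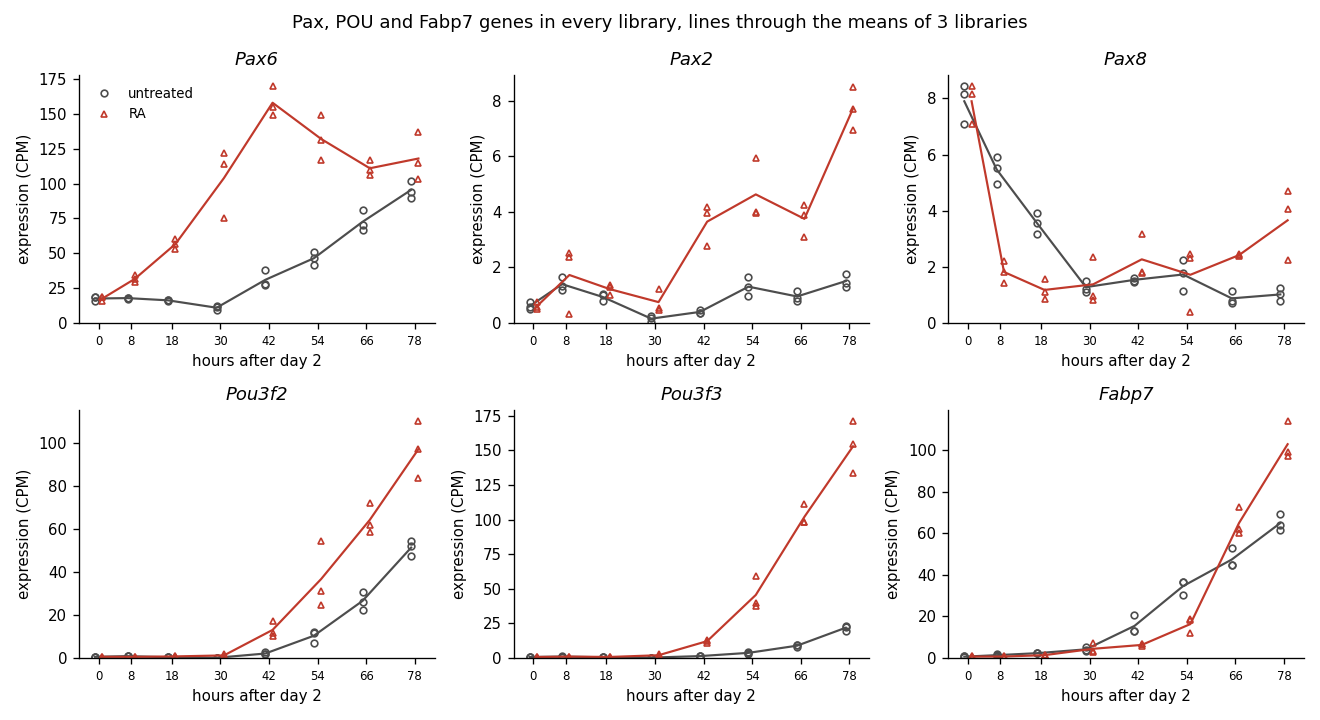
Expression of Pax6, Pax2, Pax8, Pou3f2, Pou3f3 and Fabp7 in CPM (vertical axis, a separate scale for each gene) against hours after day 2, with each library as a symbol (grey circles untreated, red triangles RA) and lines through the means of 3 libraries. Pou3f3 separates the arms to the end, at 153 against 21.8 CPM at 78 h, Pax6 converges after its RA maximum of 158 CPM at 42 h, and the lines of Fabp7 and Pax8 cross.

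Time shifts can also be read from the levels. With RA, Sox1 reached 50% of its highest condition mean at 30 h and without RA at 54 h. The corresponding times were 42 and 54 h for Sox21, 30 and 78 h for Pax6, 66 and 78 h for Pou3f2, and 66 and 78 h for Fabp7. The mark of Fabp7 came from RA at 78 h (103 CPM), but at 54 h its mean was lower with RA, 16.3 against 34.6 CPM. Against the maximum of its own arm, untreated Fabp7 (65.0 CPM) passed 50% at 54 h and RA Fabp7 at 66 h. Both arms of Pou3f2 passed 50% of their own maximum at 66 h, while Sox1, Sox21 and Pax6 stayed earlier with RA. For Sox3 the RA arm was the later, 54 against 42 h. The Sox1 interval rests on the 30 h libraries: without that time, an alternative chosen after seeing the data, its highest mean was 169 CPM and both arms reached 50% of it at 42 h, and Pax6 did so at 42 h with RA. No time then lies between 18 and 42 h, so the tie of Sox1 cannot show whether RA was earlier. At 42 h the Sox1 means were 167 CPM with RA and 85.1 CPM without. Untreated organoids did not reach 50% of the highest mean of Pax2 or Pou3f3, both of which were highest with RA at 78 h.

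Within each arm the order of the conditions was clear for some genes and not for others. For Pou3f3 the ranges of neighbouring conditions in the order of means overlapped in 1 of 7 neighbouring pairs in each arm, and for Fabp7 in 0 without RA and 2 with RA. For Sox2 they overlapped in 4 and 5, for Sox3 in 5 and 6, and for Pax8 in 4 and 6, so that most neighbours in that order of means do not differ beyond the spread of their libraries. An exact permutation test of 3 against 3 libraries cannot go below p = 0.1 (two-sided).

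Levels of different genes were compared as mean CPM per kb of exon. At day 2 Sox2 had 197 CPM per kb and Sox3 11.1, and the others had 0.0837 (Pou3f3) to 1.5 (Pax6). At 30 h with RA, Sox1 was second to Sox2 with 42.1 against 131 CPM per kb, while in untreated organoids Sox3 was second with 13.0 and Sox1 had 4.42. At 78 h the order without RA was Sox2 (107), Fabp7 (52.0), Sox3 (42.3), Sox1 (35.0), Sox21 (25.7), Pou3f2 (9.18), Pax6 (8.16) and Pou3f3 (2.94). With RA at 78 h it was Sox2 (114), Fabp7 (82.7), Sox3 (35.3), Sox21 (21.2), Pou3f3 (20.7), Sox1 (19.7), Pou3f2 (17.4) and Pax6 (10.1), so that Pou3f3 stood above Sox1 in these means. Pax2 and Pax8 were lowest in both arms, with at most 1.43 CPM per kb.

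The relatives of these genes did not all follow them. Of the other Sox genes, 5 of 13 tested were higher with RA and 0 lower at 18 h, and 6 of 13 were higher and 0 lower at 78 h. They were led by Sox17, an endoderm regulator, with 8.41 against 0.226 CPM at 18 h (log2 fold change 5.27 ± 0.23, adjusted p = 1.4e-09), and Sox7, also an endoderm gene (3.02 ± 0.28, adjusted p = 1.7e-06). Sox6, expressed in neural progenitors, was higher at 42 h with 12.3 against 1.78 CPM (2.77 ± 0.15, adjusted p = 1.7e-07). Among the other Pax genes, the dorsal neural tube genes Pax3 and Pax7 were higher with RA at 42 h, Pax3 with 11.1 against 2.28 CPM (2.27 ± 0.24, adjusted p = 2.0e-05) and Pax7 with 7.04 against 1.08 CPM (2.69 ± 0.17, adjusted p = 4.1e-07), 3 of 4 tested being higher and 1 lower. The lower was Pax5, of the same subgroup as Pax2 and Pax8 (-1.57 ± 0.28, adjusted p = 0.00094), which had been higher at 18 h (2.51 ± 0.29, adjusted p = 1.1e-05).

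Of the other POU genes, Pou3f1, an epiblast gene also known as Oct6, was lower with RA at 42 h, 9.80 against 145 CPM (-3.88 ± 0.13, adjusted p = 7.7e-09), and Pou3f4 was higher at 78 h, 13.6 against 4.21 CPM (1.71 ± 0.11, adjusted p = 4.6e-07). At 42 h 1 of the 8 POU genes tested was higher and 3 were lower. Fabp3, a fatty acid binding protein of muscle, was the only other Fabp gene called for RA against untreated organoids, higher with RA at 54, 66 and 78 h, at 78 h with 25.2 against 6.99 CPM (1.87 ± 0.11, adjusted p = 1.4e-07). Of 24 other neural progenitor genes, 8 were higher and 1 lower at 18 h (median log2 fold change 0.60), 10 were higher and 3 lower at 42 h (0.65), and the final time had 3 higher and 4 lower (0.35). They included Nr2f1, higher at 42 h (55.1 against 2.23 CPM, 4.61 ± 0.11, adjusted p = 7.7e-10), and Zic2, lower (51.8 against 151 CPM, -1.55 ± 0.06, adjusted p = 1.9e-08).

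Genes of neighbouring fates moved with the RA effect as well. Of the midbrain-hindbrain boundary genes, the domain in which Pax2 and Pax8 are known, 2 of 11 tested were higher and 6 lower at 42 h, with Otx2 at 7.41 against 141 CPM (-4.23 ± 0.33, adjusted p = 2.3e-06) and Wnt1 higher (2.27 CPM against 0 in all 3 untreated libraries). The ventral and dorsal spinal progenitor genes, the domain towards which RA shifts neural tissue, were higher in 5 of 10 tested at 18 h and in 11 of 15 at 78 h, and lower in none at either time. Between these times 1 was lower at 42 h (7 of 12 higher), 54 h (9 of 14 higher) and 66 h (10 of 14 higher). Pluripotency genes were lower in 6 of 13 at 18 h and 5 of 13 at 78 h, with 0 and 1 higher. Neuron differentiation genes were higher in 9 of 12 and lower in 1 at 78 h, with Dcx at 47.4 against 4.90 CPM (3.30 ± 0.15, adjusted p = 1.9e-08), while Stmn2 was lower (43.4 against 163 CPM, -1.89 ± 0.10, adjusted p = 9.6e-08).

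RA organoids at 78 h, in which Pax2, Pax8 and Pou3f3 were called higher, also held more transcripts of several other cell types, but not of glia. The 10 epidermis and trophoblast genes summed to 57.5 to 64.6 CPM without RA and 557 to 586 CPM with RA, and 8 of 8 tested were higher. The 8 endoderm genes summed to 3.29 to 3.81 CPM and 35.8 to 38.8 CPM, with 4 of 5 tested higher and 2 genes of the list at 3 counts or fewer in every untreated library. The neural crest and placode genes summed to 34.5 to 38.6 CPM and 58.0 to 74.4 CPM, with 5 of 9 higher and 1 lower. Of the mesoderm genes 2 of 7 tested were higher and 1 lower, with sums of 9.96 to 13.4 CPM without RA and 27.1 to 32.8 CPM with RA. The glia genes summed to 60.1 to 62.6 CPM without RA and 56.5 to 59.5 CPM with RA, and 1 of 7 was higher. Sox17 and Foxa2 stand in the endoderm list and also in the other Sox and the spinal lists. The part of these cell types in the values of the 10 genes was not tested. At 18 h the sums were 61.2 to 68.8 against 143 to 158 CPM for epidermis and trophoblast and 3.75 to 3.89 against 27 to 29.8 CPM for endoderm.

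Across the 15 condition means, Pou3f2 and Pou3f3 were the most similar pair (Pearson's r = 0.957 of log2(CPM + 1)), followed by Sox3 and Fabp7 (r = 0.943), and Sox2 correlated negatively with Sox1 (r = -0.818). Of 16011 genes with at least 1 CPM in some condition, the most similar to each gene were Dusp22 for Sox1 (0.98), Gm40723 for Sox2 (0.945), Cxxc4 for Sox3 (0.976), Peg12 for Sox21 (0.985), Crabp2 for Pax6 (0.982), Phlda1 for Pax2 (0.953), Paip2b for Pax8 (0.945), Pax7 for Pou3f2 (0.994), Sox5 for Pou3f3 (0.988) and Sparcl1 for Fabp7 (0.977). Second to Sox5 for Pou3f3 was Pantr1 (0.987), a non-coding RNA next to it. These are descriptions over 15 points that share the day 2 start, a common time course and the libraries, and they depended on the measure: with Spearman's rho or a pseudocount of 0.1, the same 3 leading genes were kept in 1 of 20 lists.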

How the data were processed

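Poly(A) RNA-seq libraries of 45 samples were made with the NEBNext Ultra Directional kit and read as 75 bp single ends. The deposited table holds raw gene counts, for which the authors trimmed reads with Trim Galore 0.5.0, removed abundant sequences with Bowtie2 2.3.4.1, aligned the rest with STAR to GRCm38 (Ensembl release 94) and counted them with featureCounts of Subread 1.6.2. The strand setting of featureCounts is not given in the sources used here. Reads shared with overlapping genes could therefore be assigned to either.

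Counts were analysed in edgeR 4.0.16 (R 4.3.3) with TMM factors, filterByExpr (minimum count 10, minimum total 15) and the quasi-likelihood test (glmQLFit, glmQLFTest), one fit for each of 7 comparisons of RA with untreated, 14 with day 2 and 2 interactions. P values were adjusted by Benjamini-Hochberg over all genes tested. SE is the log2 fold change divided by the square root of F, and 95% intervals use 4 residual degrees of freedom. CPM use TMM factors over all 45 libraries, and lengths, coordinates and overlaps come from GENCODE M21, which placed 54409 of the 54532 genes. Total counts were 17298632 to 39688686 per library, so that 3 counts correspond to at most 0.173 CPM before scaling. Counting intervals and floors cover counting error only.

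The GEO protocol text and the sample titles and design give different doses and times, and the design's 250 nM and the titles' hours were used. The 45 pairs of replicates each differed by more than sampling noise (mean chi-square per gene 1.97 to 14.8, and 41.5 to 110 for the 4 pairs of RA 8 h replicate 3 and RA 30 h replicate 2). Same-numbered libraries of the compared groups were taken to deviate together where every pair had a correlation above 0.1. Only RA against untreated at 66 h met this rule (0.52, 0.21 and 0.25). The correlations were 0.09, 0.22 and 0.22 at 30 h and 0.33, 0.02 and 0.35 at 78 h. The numbers were therefore not used as a block in the main fits. The genes and lists were chosen with earlier results of these data known. Named list genes are those with the largest change among called genes, at most 3 in each direction and time, and named similar genes are those with the highest correlation.

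Each result was recomputed with DESeq2 1.42.0, with RLE size factors, with library totals, with no filter on low counts, with at least 10 counts in every library, with a replicate block, in single fits of all 45 libraries with and without the library run, at an adjusted p of 0.05 without a minimum change, with other definitions of onset and likeness, and without each library in turn. Onset without 30 h and RA 8 h replicate 3, the times of 50% without 30 h, and RA 30 h replicate 2 alone against day 2, were added after seeing the data. The edgeR steps were tested on simulated data with known changes.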

Additional observations from a re-analysis of the deposited data

Results flagged for a closer look

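The RA effect on 8 of the 10 genes differed between time points by an interaction term of edgeR's quasi-likelihood test, with 10 differences past an adjusted p of 0.01 (Benjamini-Hochberg over all genes tested). Either interaction was called for 23.8% of all genes tested, that of 18 and 42 h for 16.2% and that of 42 and 78 h for 12.6%. From 18 to 42 h the log2 effect changed by -1.47 for Sox1, 0.55 for Pax6, 2.77 for Pax2, 2.14 for Pax8 and 2.71 for Pou3f3. The difference of Pax6 was lost under the replicate block (0.57, adjusted p = 0.018) and in 9 of the 12 fits that left out a library. From 42 to 78 h it changed by -1.79 for Sox1, -1.59 for Sox21, -2.03 for Pax6, -1.75 for Pou3f2 and 1.98 for Fabp7. All libraries of 18 and 42 h come from the earlier run of library numbers and all libraries of 78 h from the later run, so that the second set of differences is not free of that order in time. At 18, 42 and 78 h both arms come from the same run of library numbers, which does not hold at 30 and 54 h. Conditions of 3 libraries are too small for a test of single outlying values, so none was made. Among replicates, RA 30 h replicate 2 differed from the other two by a mean chi-square per gene of 87.7 and 110, against 8.95 between those, and RA 8 h replicate 3 by 44.4 and 41.5, against 5.43.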

How the results depend on the processing

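Of 1922 log2 fold changes of the 10 genes recomputed with all libraries, 1801 kept their direction and side of the threshold, 84 passed it anew, 21 lost it and 16 reversed. With each library left out in turn, 1398 of 1482 kept both, 13 passed anew, 46 lost the call and 25 reversed. Where not stated otherwise, the cause was not tested. The number of the 10 genes called for RA at 8 h was 1 and became 2 with DESeq2, without the filter and in the fits of all 45 libraries, and 0 under the replicate block. It was 4 at an adjusted p under 0.05 without a minimum change (11.2% of all genes). That last setting gave 9 at 66 h and 8 at 78 h (47.0% of all genes at each). Against day 2 it gave 5, 6 and 8 for untreated 8, 18 and 30 h (16.1%, 42.2% and 69.3%). For RA 8 and 18 h it gave 4 and 8 (25.3% and 68.5%). It called 11.2% to 55% of all genes for RA against untreated and 16.1% to 78.1% against day 2. For the other settings, and for single libraries left out, the share of all genes is not given here, so those counts describe the 10 genes only. Requiring 10 counts in every library gave 3 at 30 h for RA against untreated, and against day 2 it gave 1, 3 and 5 for untreated 8, 30 and 66 h and 5 for RA 42 h, with 2 genes of earlier onset, since it removes low genes from the test. Untreated 8 h had 1 without the filter, and RA 8 h against day 2 had 2 with DESeq2 and in the fits of all 45 libraries.

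The reversed values were all of effects that did not pass the test. Pax8 at 30 h was -0.04 and Fabp7 -0.02 under the replicate block, and with the library run as a term they were -0.04 and -0.16. At 54 h library totals gave 0.02 for Sox2, 0.05 for Sox3 and 0.03 for Pax8, the fit of all 45 libraries 0.00 for Sox3 and Pax8, and that with the library run 0.10 and 0.07. Library totals gave 0.00 for Sox21 at 66 h, 0.05 for Pou3f2 in RA 8 h against day 2 and -0.01 for Sox2 in the change from 18 to 42 h, and the library run gave -0.01 for Pax6 in untreated 8 h and 0.16 for Pou3f2 in RA 8 h. Single libraries left out gave 0 to 2 called genes for RA at 8 h, 3 to 5 at 30 h and 1 to 2 for RA 8 h against day 2. For RA against untreated they gave log2 ranges of -0.01 to 0.80 for Pax2 at 8 h, -0.56 to 0.38 for Pax8 and -0.46 to 0.31 for Fabp7 at 30 h, -0.25 to 0.10 for Sox3 and -0.36 to 0.42 for Pax8 at 54 h, and -0.11 to 0.05 for Sox21 at 66 h. Against day 2 they gave -0.01 to 0.08 for Pax6 in untreated 8 h, -0.30 to 0.28 for Pou3f2 and -0.09 to 0.44 for Fabp7 in RA 8 h, -0.09 to 0.42 for Pou3f3 in RA 18 h and -0.25 to 0.57 for Pax2 in RA 30 h, and for the change from 18 to 42 h -0.16 to 0.23 for Sox21.

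The replicate block also lost the calls of Pax8 at 8 h (-1.59, adjusted p = 0.024), Pou3f2 at 18 h (1.26, 0.024), Pax2 in untreated 54 h (1.10, 0.013) and Pax6 from 18 to 42 h (0.57, 0.018). Same-numbered libraries of RA and untreated groups had correlations of -0.39 to 0.52, and the block changed no call at 66 h. With RA 30 h replicate 2 alone against day 2, chosen after seeing the data, 7 genes were called against 5 with all 3 libraries, and 24.1% against 24.7% of all genes. The spread then comes from the day 2 libraries, and the lone library is assumed to vary like them. Of 160 onset results recomputed with all libraries, 28 moved. Depth limits the calls of low genes, such as Pou3f2, which had 0 to 61 counts per library up to 30 h.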
